A study of Rattus norvegicus with 48 samples.

Results

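The lysosomal genes Ctsb, Ctsd, Cd63 and Lyz2 were followed in the motor cortex of rats around implanted silicon electrodes. They were chosen by their rat Ensembl IDs, which are ENSRNOG00000010331 for Ctsb, ENSRNOG00000020206 for Ctsd, ENSRNOG00000007650 for Cd63 and ENSRNOG00000005825 for Lyz2. All 4 were found among the 18997 gene IDs of the series, in the table of implanted rats and in that of naive rats. RNA was sequenced from tissue cut out of 20 µm brain sections by laser capture microdissection (excision of a chosen area with a laser under a microscope). Near tissue came from within 100 µm of the implant. Far tissue lay about 500 µm away and was pooled from 4 smaller areas. Implanted rats numbered 12, of which 3 were killed at 24 h, 5 at 1 week and 4 at 6 weeks. They gave 6 near and 6 far libraries per time point. The 3 naive rats, which had no implant, gave 6 libraries at each of the positions labelled 100 µm and 500 µm.

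All rats were wild-type Sprague-Dawley rats, and the labels' protocols give male rats aged 12 to 14 weeks for implantation. A rat with an implant received a single-shank silicon probe with recording sites, inserted 2 mm into the primary motor cortex after the dura had been cut. Brains were fixed by perfusion with 4% paraformaldehyde, and tissue was taken between about 600 and 1700 µm below the cortical surface. Naive rats had no probe, and no sham-operated group is given in the labels, so surgery and probe cannot be told apart. The labels number the naive and implanted libraries in different series, so a difference between batches cannot be told apart from the implant either.

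Lysosomes are acidic organelles that break down proteins, lipids and nucleic acids delivered by endocytosis, phagocytosis and autophagy. In the brain nearly all cells hold them, and microglia and macrophages, which take up debris after injury, are especially rich in them. Ctsb encodes cathepsin B, a cysteine protease of the lysosomal lumen. Ctsd encodes cathepsin D, an aspartic protease of the same compartment. Cd63 encodes a tetraspanin of the membrane of late endosomes, lysosomes and secreted vesicles. Lyz2 encodes lysozyme, which cleaves bacterial cell walls and in mice is made mainly by macrophages, monocytes and neutrophils. Many lysosomal genes carry a CACGTG core in their promoters, which the transcription factor TFEB can bind, and GAGGAA is a core bound by PU.1, a factor of myeloid cells.

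Promoter windows from RefSeq (rat assembly GRCr8) were matched by symbol for Ctsd, Cd63 and Lyz2, 3 of the 4 genes. They are shown because the genes belong to one organelle but differ in these 2 motifs. Each line gives the 250 bases before the annotated start, 5′ to 3′ on the gene's strand. They lie at chr1:206968822-206969071 (minus strand) for Ctsd, at chr7:1921894-1922143 (plus strand) for Cd63 and at chr7:54798012-54798261 (minus strand) for Lyz2. Capitals mark CACGTG in Ctsd and Cd63, and GAGGAA in Lyz2.
Ctsd: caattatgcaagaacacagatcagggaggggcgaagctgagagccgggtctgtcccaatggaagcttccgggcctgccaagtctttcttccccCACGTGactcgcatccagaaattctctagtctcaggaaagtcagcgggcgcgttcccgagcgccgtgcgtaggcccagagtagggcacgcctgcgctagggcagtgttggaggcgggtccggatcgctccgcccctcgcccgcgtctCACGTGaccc
Cd63: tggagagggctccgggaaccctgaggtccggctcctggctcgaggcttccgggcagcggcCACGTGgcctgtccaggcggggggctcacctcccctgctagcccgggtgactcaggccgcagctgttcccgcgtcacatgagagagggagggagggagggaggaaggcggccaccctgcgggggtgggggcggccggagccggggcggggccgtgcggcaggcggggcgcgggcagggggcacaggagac
Lyz2: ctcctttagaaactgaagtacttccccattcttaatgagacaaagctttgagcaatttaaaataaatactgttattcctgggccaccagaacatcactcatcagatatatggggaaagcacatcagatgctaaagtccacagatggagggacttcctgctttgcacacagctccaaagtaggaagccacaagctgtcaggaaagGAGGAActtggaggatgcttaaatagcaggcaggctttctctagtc
The Ctsd window held CACGTG at 2 places, whose first bases lay 157 and 10 bases before the start. The Cd63 window held it at 1 place, 190 bases before the start, and also held GAGGAA 91 bases before it. The Lyz2 window held no CACGTG and held GAGGAA 46 bases before the start. Searched on both strands, CACGTG was present in 5.59% of the 33469 promoter windows of this length, and GAGGAA in 23.3%. The TCACGTG form was present in 2.79% of the windows, and both CACGTG places in Ctsd were part of it on 1 strand or both. A match describes letters only, and no binding was measured.

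Libraries held 3363892 to 12844185 counts and detected 3062 to 16023 genes. The 4 libraries with fewer than 6000 genes came from rat 29 (near, right hemisphere, 24 h), rat 20 (near, 1 week) and rat 23 (near right and far left, 1 week). The rat was the replicate, and libraries of both hemispheres were summed per rat and distance. Floors cover counting error only, and a floor of 3 counts corresponds to 0.236 to 0.892 CPM (counts put on the same total for every library) in near libraries, 0.234 to 0.486 in far libraries and 0.26 to 0.713 in naive libraries. Cell type markers and other lysosomal genes were not analysed here, since the files give IDs without symbols, so the labelled tissue was not checked against its markers.

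Ctsb was higher in near than in far tissue in all 12 implanted rats (11 of 12 with library totals only), and its difference averaged over the 3 times passed the test. Ctsd was higher in near tissue in 10 of 12 rats (8 with library totals only), Lyz2 in 9 and Cd63 in 8, and none of these 3 passed the same test. Ctsd was called by other tools, and Lyz2 in some alternative fits, as given below. The shares of all genes with such counts of rats were not computed. Levels are given as CPM after TMM scaling, a correction for library composition. They are not corrected for gene length and are compared only within a gene. In bulk tissue, more cells of a type and more RNA per cell cannot be told apart.

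At 24 h, Ctsb stood at 979.3, 312.7 and 291.9 CPM in near tissue of rats 25, 29 and 30, against 285.0, 153.0 and 252.7 CPM in their far tissue. At 1 week it stood at 341.3, 301.8, 330.1, 590.8 and 416.0 CPM in near tissue of rats 9, 10, 20, 22 and 23, against 161.6, 214.6, 223.1, 298.1 and 216.2 CPM in far tissue. At 6 weeks it stood at 156.0, 294.5, 346.6 and 282.3 CPM in near tissue of rats 2, 11, 17 and 19, against 144.4, 188.1, 152.4 and 225.1 CPM in far tissue. Every near value at 24 h and 1 week lay above all far values of the same time, as did those of 4.9% and 0.289% of genes, and at 6 weeks rat 2 was low in both tissues so that the groups overlapped. The near to far ratio ran from 1.08 in rat 2 to 3.44 in rat 25. Averaged over the 3 times, the log2 fold change was 0.79 ± 0.18 (approximate SE; edgeR quasi-likelihood test, adjusted p = 0.002178 over 14399 genes). Of all genes tested, 1.51% were called in either direction and 0.382% were called higher. Ctsb was the only one of the 4 genes called, so 1 of 4.

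The Ctsb difference lay well inside the range of all genes, as the histogram of fold changes shows. The median log2 fold change of the 14399 genes was -0.393, and 18.61% of genes had a larger fold change than Ctsb. These genes pool all levels that passed the filter, so fold changes of unlike precision are compared. The approximate SE was 0.18 for Ctsb but 1.26 for Lyz2. The share among genes at levels like that of Ctsb was not computed. The median moved to -0.244 with DESeq2 size factors and to -0.525 with library totals only, and the Ctsb fold change stayed above the median in each. Near minus far, Ctsb differed by 0.777 ± 0.477 on the log2(CPM + 1) scale (SD, n = 12 rats), with p = 0.000488 in the exact sign-flip permutation test (two-sided), the smallest that 12 rats allow. After adjustment over 14169 genes this p was 0.0721, and 0 genes passed, although 1951 had an unadjusted exact p below 0.05. A gene was higher in near tissue of all 12 rats for 0.191% of genes. With library totals only, or totals without the 2 most abundant genes, Ctsb was higher in 11 of 12 rats.

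**Figure D1:**
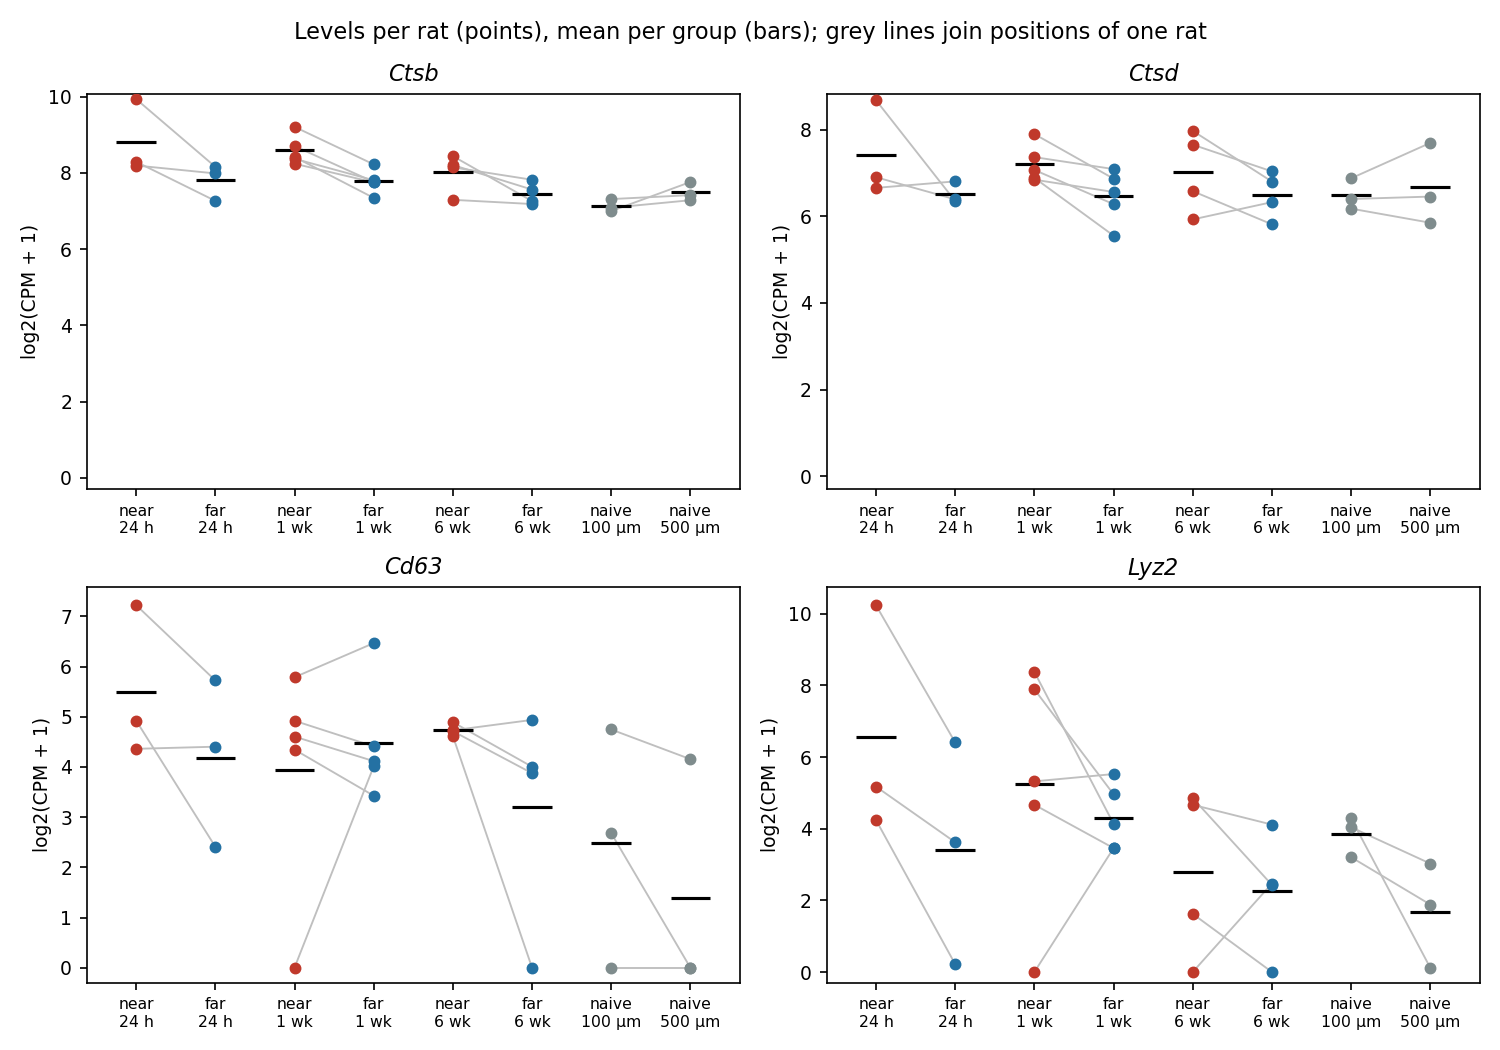
Level of each gene as log2(CPM + 1) in near, far and naive tissue. Points are rats, bars are the mean of the log2 values, and grey lines join both positions of a rat. Ctsb was higher in near than in far tissue in all 12 implanted rats (11 of 12 with library totals only), and the points of Cd63 and Lyz2 reach 0 in some rats.

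The edgeR call of Ctsb ended when single rats were left out. Its adjusted p was 0.0998 without rat 25, 0.08336 without rat 22 and 0.1128 without rat 11, with log2 fold changes of 0.66, 0.78 and 0.78. It was also not called with no low-count filter (adjusted p = 0.06894), with libraries not summed (adjusted p = 0.09377) or with the naive difference between positions subtracted (1.15, adjusted p = 1). Per time, the fold change was 1.00 ± 0.36 at 24 h (adjusted p = 0.6525), 0.82 ± 0.27 at 1 week (adjusted p = 0.2022) and 0.55 ± 0.30 at 6 weeks (adjusted p = 1; edgeR quasi-likelihood test for each). None of the 4 genes was called at a single time, where 0.132%, 0.396% and 0.0764% of genes were called at 24 h, 1 week and 6 weeks. Other tools did call Ctsb, at 24 h the DESeq2 Wald test (adjusted p = 0.01337) and limma-voom (adjusted p = 4.228e-08), and at 1 week the DESeq2 Wald test (adjusted p = 0.001483) and edgeR with DESeq2 size factors (adjusted p = 0.02351). The fold change was smaller at each later time, an order that turned on rat 25, and this change of the near to far difference was not called. It was -0.17 ± 0.45 for 1 week over 24 h, -0.27 ± 0.41 for 6 weeks over 1 week and -0.45 ± 0.47 for 6 weeks over 24 h (edgeR, adjusted p = 1 for each). Without rat 25 the 24 h fold change was 0.61, and these changes were 0.20 for 1 week over 24 h and -0.04 for 6 weeks over 24 h. None of the 4 genes was called in these changes, where 0%, 0.0278% and 0.0208% of genes were called. For 1 week over 24 h, 258 genes had an unadjusted p below 0.05 in edgeR, and the DESeq2 Wald test called 418 genes and limma-voom 0.

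Ctsd, the second cathepsin, was higher in near tissue in 10 of 12 rats, or in 8 of 12 with library totals only, and was not called. At 24 h it stood at 408.2, 118.5 and 99.78 CPM in near tissue of rats 25, 29 and 30, against 80.6, 82.89 and 110.8 CPM in far tissue. At 1 week it stood at 133.2, 113.9, 237.2, 163.8 and 117.3 CPM in near tissue, against 76.68, 93.35, 115.8, 135.1 and 45.94 CPM in far tissue of rats 9, 10, 20, 22 and 23. At 6 weeks it stood at 94.62, 59.83, 249.9 and 200.1 CPM in near tissue, against 55.25, 79.22, 110.5 and 130.2 CPM in far tissue of rats 2, 11, 17 and 19. The groups overlapped at each time, and rats 30 and 11 were lower in near tissue. At 1 week near tissue was higher in 5 of 5 rats, or in 4 of 5 with library totals only. The share of all genes higher in 5 of 5 rats is not given here. Its log2 fold change was 0.72 ± 0.29 over the 3 times (edgeR quasi-likelihood test, adjusted p = 0.3332). The per-rat difference was 0.712 ± 0.721 (SD, n = 12; exact sign-flip test, two-sided, p = 0.00439, adjusted p = 0.141). With other tools the adjusted p was 0.006976 in the DESeq2 Wald test and 0.02512 in limma-voom, so the call of Ctsd depends on the tool. Per time the log2 fold change was 0.87 ± 0.57 at 24 h, 0.76 ± 0.42 at 1 week and 0.53 ± 0.48 at 6 weeks (edgeR, adjusted p = 1, 0.9007 and 1). The 24 h value was 0.17 without rat 25 (edgeR), and limma-voom called it at 1.57 with all rats (adjusted p = 0.0371).

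**Figure D2:**
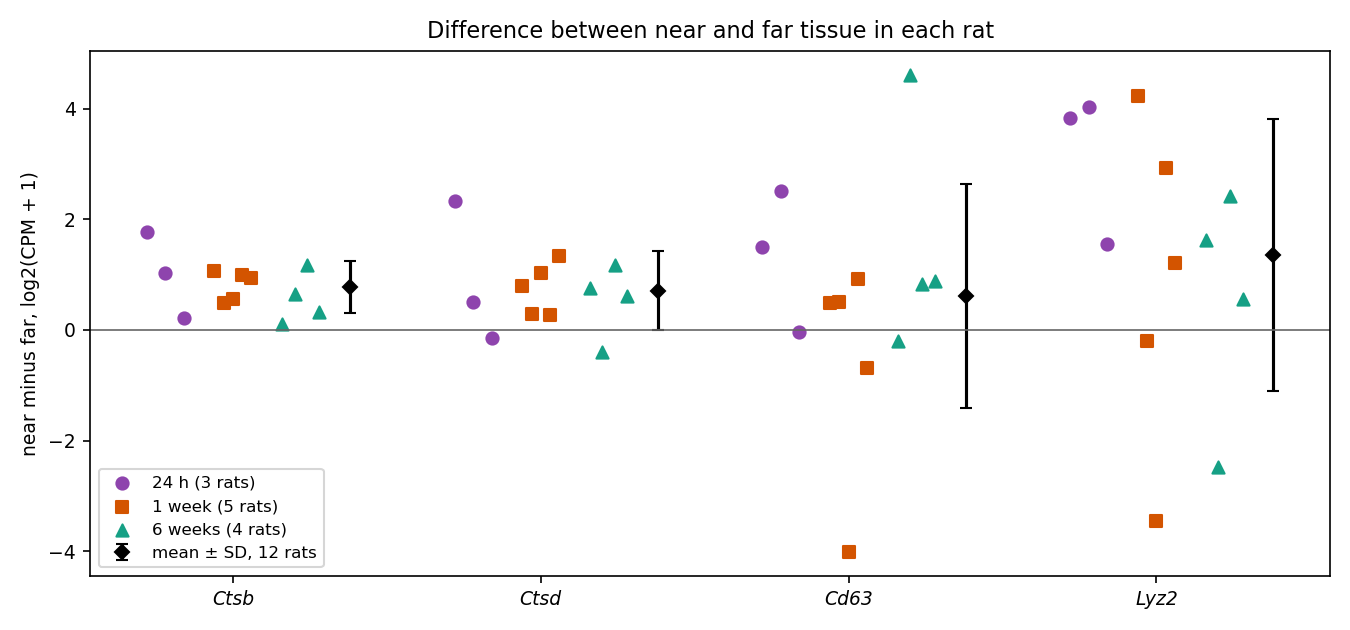
Near minus far difference of log2(CPM + 1) for each gene in each of the 12 implanted rats, by time. Diamonds and bars give the mean ± SD over the rats, which was 0.777 ± 0.477 for Ctsb, 0.712 ± 0.721 for Ctsd, 0.611 ± 2.02 for Cd63 and 1.35 ± 2.45 for Lyz2.

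Of the 4 genes, Lyz2 showed the widest range between rats. In near tissue at 24 h it stood at 1202 CPM in rat 25, a sum of 19659 counts, but at 17.89 CPM in rat 29 and 35.08 CPM in rat 30. Far tissue of these rats held 83.82, 0.1628 and 11.3 CPM, where the value of rat 29 was 2 counts and lay under the floor. Rat 25 was also the highest rat for the other 3 genes in near tissue at 24 h. At 1 week Lyz2 stood at 330.7, 38.97, 0, 235.9 and 24.41 CPM in near tissue, against 16.58, 45.02, 9.968, 30.11 and 9.99 CPM in far tissue of rats 9, 10, 20, 22 and 23. At 6 weeks it stood at 2.08, 0, 27.91 and 24.39 CPM in near tissue, against 0, 4.536, 4.393 and 16.31 CPM in far tissue of rats 2, 11, 17 and 19. Near tissue was higher in 9 of 12 rats, and near and far values overlapped at each time. The 0 of rat 20 came from a single library of few genes. By counting error alone, a count of 0 there allows up to 0.892 CPM before TMM scaling.

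The log2 fold change of Lyz2 over the 3 times was 2.06 ± 1.26 (edgeR quasi-likelihood test, adjusted p = 0.8566), and 8.153% of genes had a larger one. The per-rat difference was 1.35 ± 2.45 (SD, n = 12; exact sign-flip test, two-sided, p = 0.0854, adjusted p = 0.438). Without the 4 libraries of few genes the fold change was 2.35 with an adjusted p of 2.712e-06 (edgeR). It was also called without rat 10, rat 11 or rat 20 (edgeR, adjusted p = 0.001818, 0.0001994 and 3.099e-06), and with no low-count filter (adjusted p = 0.01335). Rats 10, 11 and 20 were the 3 rats with less Lyz2 in near than in far tissue (log2 differences of -0.203, -2.469 and -3.455). Leaving out the libraries of few genes also removed rat 20. The call of Lyz2 thus turned on which libraries and genes entered the fit. Per time the fold change was 3.84 ± 2.33 at 24 h, 1.16 ± 1.95 at 1 week and 1.19 ± 2.21 at 6 weeks (edgeR, adjusted p = 1, 0.9658 and 1). Without rat 9 the 1 week value was 0.24, and without rat 2 the 6 weeks value was 0.06. The 24 h value was called without rat 2, 10, 11 or 20, which belong to the other times (edgeR, adjusted p = 0.01956, 0.01399, 0.02351 and 0.000617), and without the libraries of few genes (adjusted p = 0.000267). In GRCr8 a related lysozyme gene, Lyc2, neighbours Lyz2 on chromosome 7, and reads shared between these copies could have been split by the counting, so the level of Lyz2 is uncertain. Lyc2 carries Lyz2 as a synonym in RefSeq, so the promoter window shown, matched by symbol, may not be that of the counted ID.

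Cd63, the membrane protein, was not called between near and far tissue. In near tissue it stood at 148.6, 29.37 and 19.56 CPM at 24 h (rats 25, 29 and 30), against 51.86, 4.315 and 20.17 CPM in far tissue. At 1 week it stood at 23.34, 29.29, 0, 19.34 and 54.25 CPM in near tissue, against 16.35, 20.27, 15.12, 9.759 and 87.5 CPM in far tissue of rats 9, 10, 20, 22 and 23. At 6 weeks it stood at 25.55, 23.53, 25.23 and 28.71 CPM in near tissue, against 29.65, 0, 13.68 and 15.05 CPM in far tissue of rats 2, 11, 17 and 19. Near values at 6 weeks lay close together, although the hemispheres of rat 19 held 8.582 and 52.23 CPM. Near values at 24 h and 1 week and far values at each time varied more widely. Far values at 1 week lay between 9.759 and 20.27 CPM except in rat 23. The log2 fold change was 0.85 ± 1.04 (edgeR, adjusted p = 1), with near tissue higher in 8 of 12 rats (exact sign-flip test, two-sided, p = 0.327). Without the 4 libraries of few genes it was higher in 9 of 11 rats (exact p = 0.00684, adjusted p = 0.211). At 1 week the fold change was -0.41 ± 1.59, and without rat 20, whose near library held 0 counts, it was 0.35 (edgeR, adjusted p = 1 for both). The sign at 1 week thus turned on 1 rat. It was 1.41 ± 1.93 at 24 h and 1.53 ± 1.82 at 6 weeks (edgeR, adjusted p = 1 for both), and these were 0.74 without rat 29 and 0.53 without rat 11, whose far library held 0 counts.

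**Figure D3:**
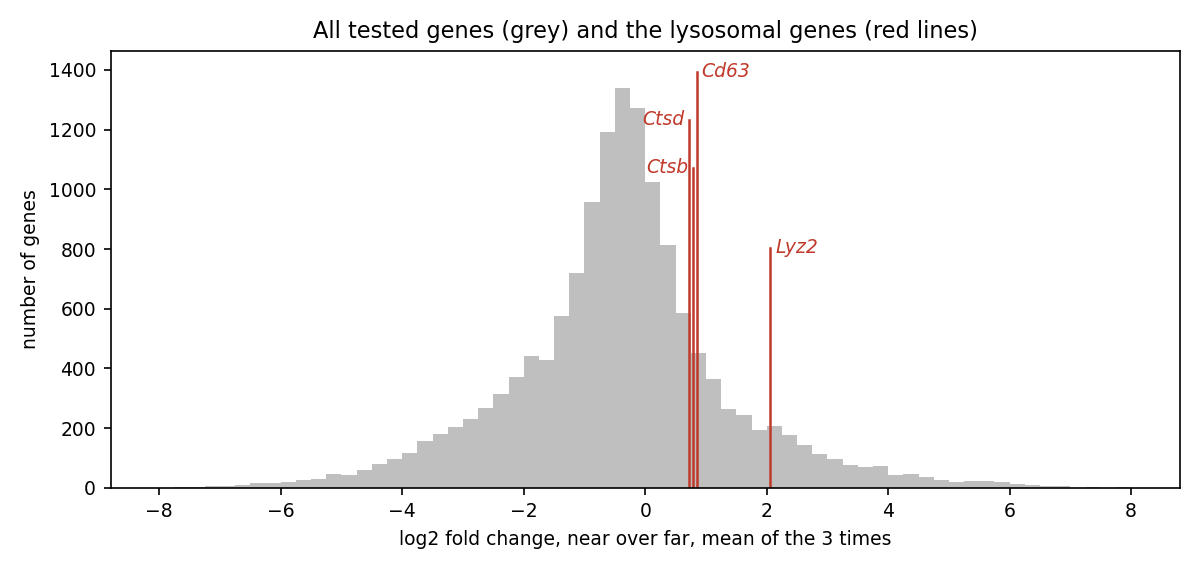
Number of genes by log2 fold change, near over far, averaged over the 3 times (grey bars, 14399 genes), with the lysosomal genes as red lines whose heights carry no value. All 4 lines lie to the right of the median of -0.393, at 0.72 for Ctsd, 0.79 for Ctsb, 0.85 for Cd63 and 2.06 for Lyz2.

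Against naive cortex, Ctsb was again the gene with a call. In naive tissue at 100 µm it stood at 158.1, 134.8 and 126.9 CPM in rats n2, n3 and n5. All near values at 24 h and 1 week lay above these, and of the near values at 6 weeks only that of rat 2 did not, so near tissue exceeded every naive value in 11 of 12 rats. Near tissue lay wholly above naive tissue for 5.29% of genes at 24 h and 0.826% at 1 week. The share of all genes above every naive value in 11 of 12 rats was not computed. The near mean was 528.0 ± 391.0 CPM at 24 h (SD, n = 3), 396.0 ± 116.8 CPM at 1 week (SD, n = 5) and 269.8 ± 80.9 CPM at 6 weeks (SD, n = 4), against 140.0 ± 16.2 CPM in naive tissue (SD, n = 3).

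The log2 fold change of Ctsb over naive tissue was 1.94 ± 0.42 at 24 h (edgeR quasi-likelihood test, adjusted p = 0.02706 over 13834 genes). It was not called without rat 25 (1.16, adjusted p = 1) or without naive rat n5 (1.94, adjusted p = 0.07818), nor with library totals only (1.97, adjusted p = 0.05122) or with both naive positions summed (1.69, adjusted p = 0.1318). At 1 week it was 1.52 ± 0.39 (adjusted p = 0.07795) and at 6 weeks 0.95 ± 0.39 (edgeR, unadjusted p = 0.0158, adjusted p = 1). Without rat 25, rat 30 or rat 20 the 1 week comparison was called, with adjusted p = 0.01469, 0.03675 and 0.04934. Ctsb was thus 1 of 4 genes called at 24 h, and none of the 4 was called at 1 week or 6 weeks, where 0.0578%, 0.123% and 0.0434% of all genes were called in the 3 comparisons and 0.0434% were called higher at 24 h.

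The other 3 genes lay within a wide spread. In naive tissue at 100 µm Ctsd stood at 116.4, 83.3 and 71.31 CPM, Cd63 at 0, 5.4 and 25.85 CPM and Lyz2 at 8.218, 15.4 and 18.52 CPM in rats n2, n3 and n5. Near tissue exceeded all 100 µm naive values in 8 of 12 rats for Ctsd, 5 for Cd63 and 8 for Lyz2. Far tissue exceeded all 500 µm naive values in 0 of 12 rats for Ctsd, 5 for Cd63 and 8 for Lyz2. For Ctsd the 500 µm naive tissue of rat n2 stood at 205.9 CPM, above the naive values at 100 µm. The shares of all genes with such counts were not computed. Cd63 had no counts in 8 of 12 naive libraries, against 2 of 18 near and 2 of 18 far libraries. Naive libraries are numbered in a series of their own, so batch and implant cannot be told apart here. The hemispheres of naive rat n5 held 0.7044 and 71.89 CPM at 100 µm, and 0 and 33.1 CPM at 500 µm. For Ctsd the log2 fold change of near over naive tissue was 1.24 ± 0.57 at 24 h, 0.78 ± 0.51 at 1 week and 0.75 ± 0.53 at 6 weeks (edgeR, adjusted p = 0.8112, 0.9449 and 1). For Cd63 it was 2.70 ± 1.78, 1.29 ± 1.57 and 1.32 ± 1.62 at these times (edgeR, adjusted p = 1 for each). For Lyz2 it was 4.94 ± 2.48, 3.17 ± 2.18 and -0.03 ± 1.97 (edgeR, adjusted p = 0.8371, 1 and 1), and the last of these changed sign with the normalization or when single rats were left out. Without rat 25 the 24 h values over naive tissue were lower, at 0.32 for Ctsd, 1.27 for Cd63 and 0.95 for Lyz2.

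**Figure D4:**
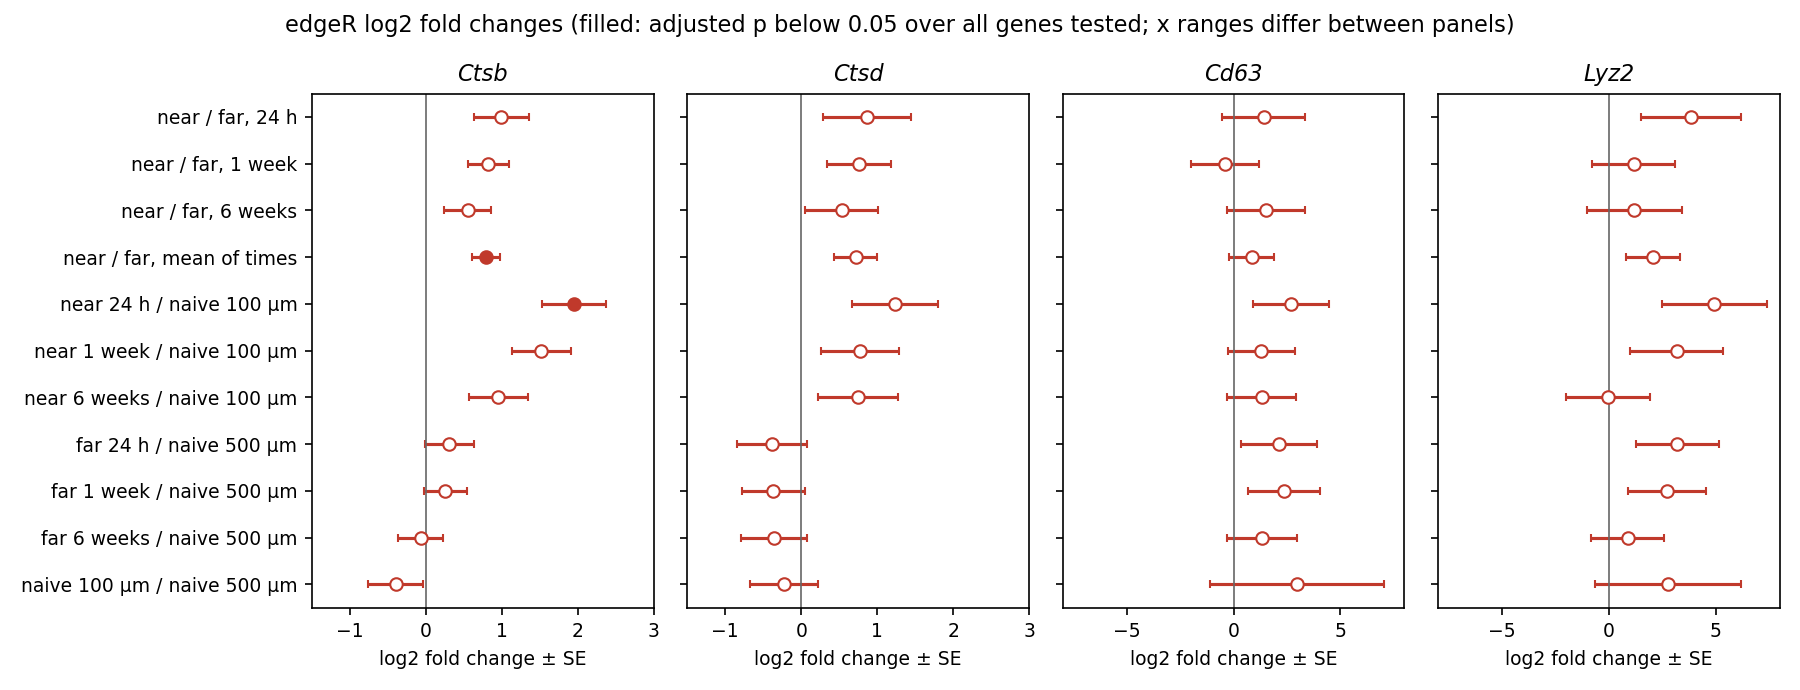
Log2 fold change ± approximate SE of each gene in the comparisons of near, far and naive tissue, with filled points at an adjusted p below 0.05 (edgeR). The filled points are Ctsb near over far averaged over times (0.79 ± 0.18) and Ctsb near at 24 h over naive tissue (1.94 ± 0.42). The horizontal ranges differ between genes.

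Far tissue overlapped naive tissue at 500 µm for both cathepsins. Ctsb averaged 230.2 ± 68.8, 222.7 ± 48.8 and 177.5 ± 37.0 CPM in far tissue at 24 h, 1 week and 6 weeks (SD, n = 3, 5 and 4), against 169.9, 154.8 and 216.0 CPM in naive rats n2, n3 and n5. Ctsd averaged 91.4 ± 16.8, 93.4 ± 34.6 and 93.8 ± 33.2 CPM in far tissue at these times, against 205.9, 86.7 and 56.71 CPM in naive rats n2, n3 and n5. Far values lay both above and below naive values for Ctsb, and none of the 12 far values of Ctsd exceeded the highest naive value. Lyz2 in naive tissue at 500 µm stood at 2.7, 7.145 and 0.0858 CPM, and all 5 far values at 1 week lay above these, as did those of 2.39% of genes. Cd63 in this naive tissue stood at 0, 0 and 16.82 CPM and overlapped far tissue at each time. Far over naive tissue, the log2 fold change at these times was 2.12 ± 1.77, 2.36 ± 1.69 and 1.34 ± 1.66 for Cd63 (edgeR). For Lyz2 it was 3.21 ± 1.96, 2.72 ± 1.82 and 0.88 ± 1.72 (edgeR). Over the rats left out, Cd63 at 1 week ranged from 1.44 to 11.53 and Lyz2 at 24 h from 0.77 to 4.44. None of the 4 genes was called in far over naive tissue at 24 h, 1 week or 6 weeks, where 0.00748%, 0.127% and 0.0598% of genes were called (edgeR).

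Within naive rats, none of the 4 genes was called between the positions labelled 100 µm and 500 µm. The log2 fold change of 100 µm over 500 µm tissue was -0.40 ± 0.36 for Ctsb and -0.23 ± 0.45 for Ctsd (edgeR quasi-likelihood test, adjusted p = 0.9999 for both). It was 2.98 ± 4.09 for Cd63 and 2.76 ± 3.41 for Lyz2 (edgeR, adjusted p = 0.9999 for both). Lyz2 was higher at 100 µm than at 500 µm in all 3 naive rats without overlap of the groups, as were 9.85% of genes. Of the 11839 genes tested, 0% were called, with 600 genes at an unadjusted p below 0.05 in edgeR and 1357 called by the DESeq2 Wald test. Around the implant, the fold change averaged over times was 0.79 for Ctsb, 0.72 for Ctsd, 0.85 for Cd63 and 2.06 for Lyz2. The naive fold changes of Ctsb and Ctsd thus had the opposite sign, each near the size of its SE or smaller. Those of Cd63 and Lyz2 had the same sign and were larger than around the implant, with SEs larger than the fold changes.

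Ordered by mean, Ctsb ran from near tissue at 24 h through near tissue at 1 week, near tissue at 6 weeks, far tissue at 24 h, far tissue at 1 week, naive 500 µm and far tissue at 6 weeks to naive 100 µm. Ctsd shared the same first 3 places and the same last place. Cd63 was also highest in near tissue at 24 h, with a mean of 65.8 ± 71.8 CPM, and lowest in naive 500 µm tissue. Lyz2 had means of 418.5 ± 679, 126.0 ± 148.1 and 13.6 ± 14.6 CPM in near tissue at 24 h, 1 week and 6 weeks (SD, n = 3, 5 and 4), and its mean at 6 weeks lay below the 14.1 ± 5.3 CPM of naive 100 µm tissue. For Ctsb, Ctsd and Lyz2 the first place of near tissue at 24 h, where rat 25 was far above the others, did not hold by medians. In near tissue at 24 h, 1 week and 6 weeks the medians were 312.7, 341.3 and 288.4 CPM for Ctsb, 118.5, 133.2 and 147.3 CPM for Ctsd, and 35.08, 38.97 and 13.23 CPM for Lyz2. In each gene all 7 pairs of neighbouring groups overlapped in their values, so no neighbours in these orders were separated.

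Between times, none of the 4 genes was called in near tissue, where 0.0469%, 0.00781% and 0.0234% of 12799 genes were called for 1 week over 24 h, 6 weeks over 1 week and 6 weeks over 24 h. The log2 fold change of Ctsb in near tissue at 6 weeks over 24 h was -1.02 ± 0.38 (edgeR, unadjusted p = 0.008143, adjusted p = 1), but only -0.155 without rat 25. In far tissue none of the 4 was called and 0% of 12995 genes were called for each of these comparisons, with 546, 661 and 533 genes at an unadjusted p below 0.05 in edgeR and 196, 129 and 219 called by the DESeq2 Wald test.

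The near minus far differences of the cathepsins were positively correlated between rats, without passing adjustment. For Ctsb and Ctsd, Pearson's r was 0.657 over 12 rats (permutation p = 0.0205, adjusted p = 0.123 over 6 pairs) and Spearman's rho was 0.483 (permutation p = 0.115, adjusted p = 0.336). Without rats 25 and 2 r was 0.495, and after subtraction of the mean of each time it was 0.641. For Ctsb and Lyz2 r was 0.527 (permutation p = 0.08, adjusted p = 0.24) and rho was 0.608 (permutation p = 0.0398, adjusted p = 0.239). The other 4 pairs had r between -0.323 and 0.345, and none passed adjustment.

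Over the 24 near and far sums, the levels of Ctsb correlated with those of Lyz2 at r = 0.708 and with those of Ctsd at r = 0.705, and Ctsd and Cd63 at r = 0.0109. These sums share rats and library depth and are given as a description. Among 3235 genes whose log2 CPM averaged 5 or more, the gene most like Ctsb was ENSRNOG00000021031 with r = 0.877, followed by ENSRNOG00000018087 with r = 0.82. The first of these was also the gene most like Ctsd, with r = 0.722.

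Where a rat gave libraries from both hemispheres, these differed for the lysosomal genes as well. Over 18 such pairs the absolute difference of log2(CPM + 1) had a median of 0.557 for Ctsb, 0.75 for Ctsd, 0.792 for Cd63 and 1.56 for Lyz2. The Cd63 median includes pairs without counts in either hemisphere, which entered as a difference of 0. These were naive rat n2 at both positions and naive rat n3 at 500 µm. The widest Ctsb difference, 2.68, was in near tissue of rat 29, whose left library held 405.1 CPM and whose right library, with few genes, held 62.51 CPM. In that right library Ctsd, Cd63 and Lyz2 had no counts. Ctsb had counts in every library, whereas Lyz2 had none in 4 of 18 near, 5 of 18 far and 2 of 12 naive libraries.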

How the data were processed

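The authors deposited whole-number read counts per gene, in a table of 17317 genes for implanted rats and 17616 for naive rats, with 15936 in both. Per the submitters' processing notes, which give no roles, the tools were RSEM 1.3.1, STAR 2.6.1b, DESeq2, FastQC 0.11.8 and cutadapt 2.3, and the build was Rnor_6.0. Counts estimated by RSEM need not be whole, and any rounding by the authors is not given in the sources. No molecular identifiers are named in the labels.

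Counts were summed per rat and distance. The quasi-likelihood test of edgeR 4.0.16 (R 4.3.3; filterByExpr, TMM, robust glmQLFit) was adjusted over all genes by Benjamini-Hochberg, and calls were made below 0.05. Each ± after a fold change is an approximate SE (fold change over the root of F). Near and far tissue of the 12 implanted rats shared a fit with the rat, given in the titles, as a block, as did the naive positions in a fit of their own. Deviations of a rat's near and far tissue from their group means correlated between 0.0116 and 0.104, above 0.1 in 1 of 12 rats. Comparisons of implanted with naive tissue and between times had no block, and those with naive tissue used the genes in both tables. CPM values were TMM-scaled over these genes. Rat sums and single libraries were scaled apart, so their levels are not on one scale. Exact sign-flip tests used log2(CPM + 1), and correlations used 100000 resamples. Alternatives used DESeq2 1.42.0, limma 3.58.1, other scalings or filters, no block, libraries not summed, or left out rats or the 4 libraries with fewer than 6000 genes. The other scalings of the exact test, and its repeat without those libraries, were added after seeing the data. The fits were also run on simulated data. The outcome is not given here, so no rate of missed or false calls is shown.

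The members and lists were chosen with earlier results of these data known. By rule, the 4 members and, by ID, the 2 genes most like each by Pearson's r were to be named. As IDs carry no names here, only the 2 most like Ctsb are printed. The reference held no Ensembl IDs, so 0 of 18997 IDs matched a symbol, and the preset lysosome and cell type lists were not analysed here.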

Additional observations from a re-analysis of the deposited data

Results flagged for a closer look

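Cd63 in far tissue of rat 23 at 1 week stood at 87.5 CPM, against 9.759 to 20.27 CPM in far tissue of the other 4 rats of that time. It stood apart by the gap to the nearest value relative to the range of the 5 rats (Dixon's test). It was the only such value among 16 groups of 4 or 5 rats. Chance flags about 1 in 20 such groups, close to the 1 in 16 flagged here. It was high in both hemispheres of this rat, at 86.47 CPM in the left library, which detected 5089 genes, and 53.23 CPM in the right library. Single libraries were scaled apart from the rat sums, so these values are not on the scale of the 87.5 CPM. On the library scale, far libraries of the other 4 rats held 10.48 to 21.83 CPM.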

How the results depend on the processing

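The direction of the Ctsb near over far fold change was the same in all 22 alternatives, and it was called in 16 of them. It was not called with no low-count filter (0.79, adjusted p = 0.06894), with libraries not summed (0.77, adjusted p = 0.09377), with the naive position difference subtracted (1.15, adjusted p = 1) or without rats 11, 22 or 25, and it ranged from 0.66 to 0.92 over the rats left out. With no replicate block it was 0.87 (adjusted p = 0.01005), and dropping the block changed no call of the 4 genes. The Ctsd fold change was called with the DESeq2 Wald test (0.89) and limma-voom (1.04). The Lyz2 fold change was called with no filter (2.07) and without the 4 libraries of few genes (2.35), was -0.63 with the naive difference subtracted, and ranged from 1.68 to 2.48 over the rats left out. Subtraction also gave -1.56 at 1 week and -1.48 at 6 weeks for Lyz2, and -1.67 at 24 h, -1.54 at 6 weeks and -2.24 on average for Cd63. Cd63 at 1 week was 0.52 without the libraries of few genes and ranged from -0.88 to 0.35 over the rats left out. In the exact test, leaving out these libraries gave 1.14 for Cd63 (p = 0.00684) and 1.81 for Lyz2 (p = 0.0215), and the ranges over the rats left out were 0.247 to 1.03 and 1.09 to 1.79. Lyz2 in near tissue at 6 weeks over naive tissue was 0.08 with DESeq2 size factors, 0.071 with the DESeq2 Wald test and 0.56 with naive positions summed, and ranged from -0.65 to 0.38 over the rats left out. The change of the Ctsb difference between 24 h and 1 week ranged from -0.58 to 0.20, Ctsd between naive positions from -0.49 to 0.029, and the correlation of the Cd63 and Lyz2 differences from -0.334 to 0.838, over the rats left out. Of the 4 genes, averaged near over far, 2 were called by the DESeq2 Wald test, by limma-voom and without the libraries of few genes, 0 with libraries not summed or the naive difference subtracted, and 0 to 2 without single rats. At 24 h, 1 was called by the DESeq2 Wald test and without the libraries of few genes, 3 by limma-voom, and 0 to 1 without single rats. At 1 week, 1 was called with DESeq2 size factors and by the DESeq2 Wald test. Over naive tissue at 24 h, 0 were called with library totals only or naive positions summed, and 0 to 1 without single rats. At 1 week, 1 was called with DESeq2 size factors, by the DESeq2 Wald test and with no filter, and 0 to 1 without single rats. Over all genes, averaged near over far, 217 genes were called by edgeR (55 higher), 1183 by the DESeq2 Wald test (451 higher), 343 with library totals only (52 higher), 154 with DESeq2 size factors (91 higher), 138 with no filter, 91 with no replicate block, 83 with libraries not summed and 13 with the naive difference subtracted. The causes of these differences were not tested. Cd63 and Lyz2 had no counts in several libraries, where by counting error alone values up to the floor of 3 counts could not be seen. Hemispheres of a rat could differ by more than that floor. Near tissue held 43.56 and 0 CPM of Cd63 in rat 29, and 0 and 51.56 CPM of Lyz2 in rat 17. A 0 in 1 library thus does not bound the level of the tissue.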
